A study of Mus musculus with 30 samples.

Results

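The response of control dendritic cells to 24 h of lipopolysaccharide (LPS) was measured on 10 of the 30 arrays of the series. These were the 5 arrays labelled CD11c-Cre BMDCs LPS 24 hrs, replicates A to E (here 1 to 5), set against the 5 labelled CD11c-Cre BMDCs Unstimulated, also A to E. The LPS 24 h group was bone marrow-derived dendritic cells (BMDCs) of C57BL/6 mice with the CD11c-Cre transgene, after 24 h of LPS. The unstimulated group was the same kind of cell with the same transgene, left without LPS. Both groups carry the recombinase, driven by the CD11c promoter, and no cells without it were set against them. Both groups were purified on CD11c beads after the culture period. The other 20 arrays held control cells after 6 h of LPS and cells of CD11c-Cre mice with floxed Irf4 (Irf4 knockout, KO), either unstimulated or after 6 or 24 h of LPS, with 5 arrays in each of these groups.

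LPS is the outer membrane glycolipid of Gram-negative bacteria and is sensed by TLR4 together with MD-2 and CD14. Through the adaptor MyD88 it activates NF-kB and mitogen-activated protein kinases, and through TRIF it activates IRF3 and interferon beta, whose receptor then switches on interferon-stimulated genes through STAT proteins and IRF9. Dendritic cells exposed to it mature: they take up less antigen, display more costimulatory ligands, secrete cytokines and shift their metabolism away from mitochondrial respiration.

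A level below is the log2 ratio of sample to a universal mouse reference RNA for 1 probe per gene, and a difference is the LPS 24 h mean minus the unstimulated mean on that scale. Levels of different genes cannot be set against each other. In the LPS 24 h arrays 44.8 to 55.5% of 41174 probes were well above background, against 53.8 to 66.1% in the unstimulated arrays. No probe was saturated, and 11250 genes were tested. The threshold for calling a gene was an adjusted p of 0.05 in limma (Benjamini-Hochberg over all 11250 genes). The labels call the replicates biological without saying whether each came from its own mouse or culture, so the p-values reflect only how far these samples vary. In bulk RNA, fewer cells of a kind and less RNA per cell cannot be told apart.

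The array labelled LPS 24 h replicate 2 stood apart from the other 4 of its group. Over 730 genes that changed at least 2-fold after 24 h of LPS in KO cells, its slope on the KO response was 0.135, against 0.635 to 0.785 for the other 4 LPS 24 h arrays and -0.131 to 0.164 for the unstimulated arrays, and the array nearest to it was unstimulated replicate 1. Replicate 2 was on another slide, scanned on a later day, than the other LPS 24 h arrays. The only other array of the series on that slide and scan day was control LPS 6 h replicate 3. Its slope was -0.003 and its nearest array was also unstimulated replicate 1. Differences from unstimulated cells are therefore given without replicate 2 as well, except where leaving it out kept the call and moved the fold by less than 1.5 times. Arrays also lay in sets: LPS replicates 1 and 3 were nearest to each other, as were 4 and 5, and among unstimulated arrays 2 and 3, and 4 and 5. No slide held both groups: LPS replicates 1 and 3 shared a slide, 4 and 5 another, and unstimulated replicates 1 to 3 and 4 and 5 lay on still others. Slide and treatment can be separated only through chains of other arrays.

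Of 15 dendritic cell markers 12 passed the filter on dim probes, among them Itgax, which encodes CD11c, the class II genes H2-Ab1 and Cd74 and the transcription factor Zbtb46. Flt3, Kit and Kmo did not pass it. Itgax stood at 4.31, 3.53, 4.25, 3.90 and 3.88 in LPS 24 h replicates 1 to 5, against 4.03, 4.23, 4.21, 3.69 and 3.90 in unstimulated replicates 1 to 5 (difference -0.04 ± 0.16, SE, adjusted p = 0.924). Zbtb46 stood at 1.63, 1.64, 1.63, 1.47 and 1.48 after LPS and at 1.04, 0.71, 0.62, 1.33 and 1.13 in unstimulated cells. Its 5 LPS values lay above the unstimulated ones, and the difference of 0.60 ± 0.24 did not pass the test (adjusted p = 0.1). Of the 12 markers only Cd24a changed with all 5 arrays, by -1.58 ± 0.33 (adjusted p = 0.0027), and Cd24a and Irf8 without replicate 2.

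With all 5 LPS arrays 1384 of 11250 genes were called (12.3%), 815 higher (7.24%) and 569 lower (5.06%), and 436 of them differed at least 2-fold. Without replicate 2 there were 1763 (15.7%), 1036 higher (9.21%) and 727 lower (6.46%), and 624 differed at least 2-fold. Counts of called list members below are to be read beside these shares. The same direction was called in both versions for 1241 genes, 727 higher and 514 lower. A further 143 were called with all 5 arrays and not without replicate 2, 522 the other way round, and 0 in opposite directions. Blocking on the replicate number gave 2756 calls, and 3463 without replicate 2. The scanner software's own log ratios gave 682 higher and 728 lower, and Cy5 alone 641 higher and 719 lower. Single other arrays also carried calls. Cxcl10, Cd14, Dhx58, Nfkbia, Tnfaip3, Irf9, Tnf, Ccrl2, Tap1, H2-Oa, Clec10a, Sod2, Ass1, Gpr84, Csf3r and Siglecf missed the threshold without LPS replicate 1 and also without 3 (limma adjusted p = 0.0504 to 0.141). Cd93, H2-DMa, Cd86, Arg2, C1qb, Cdc20, Klf4, Gpr84 and Camp missed it without LPS replicate 4 and also without 5 (adjusted p = 0.0558 to 0.122). Leaving out 1 unstimulated array or another lost the call of each of these genes except Cxcl10, Dhx58, Tnf, Ccrl2 and Clec10a, and also those of Pdlim2 and Relb. The median difference of all genes was 0.0158 with all 5 arrays and 0.0236 without replicate 2.

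**Figure D1:**
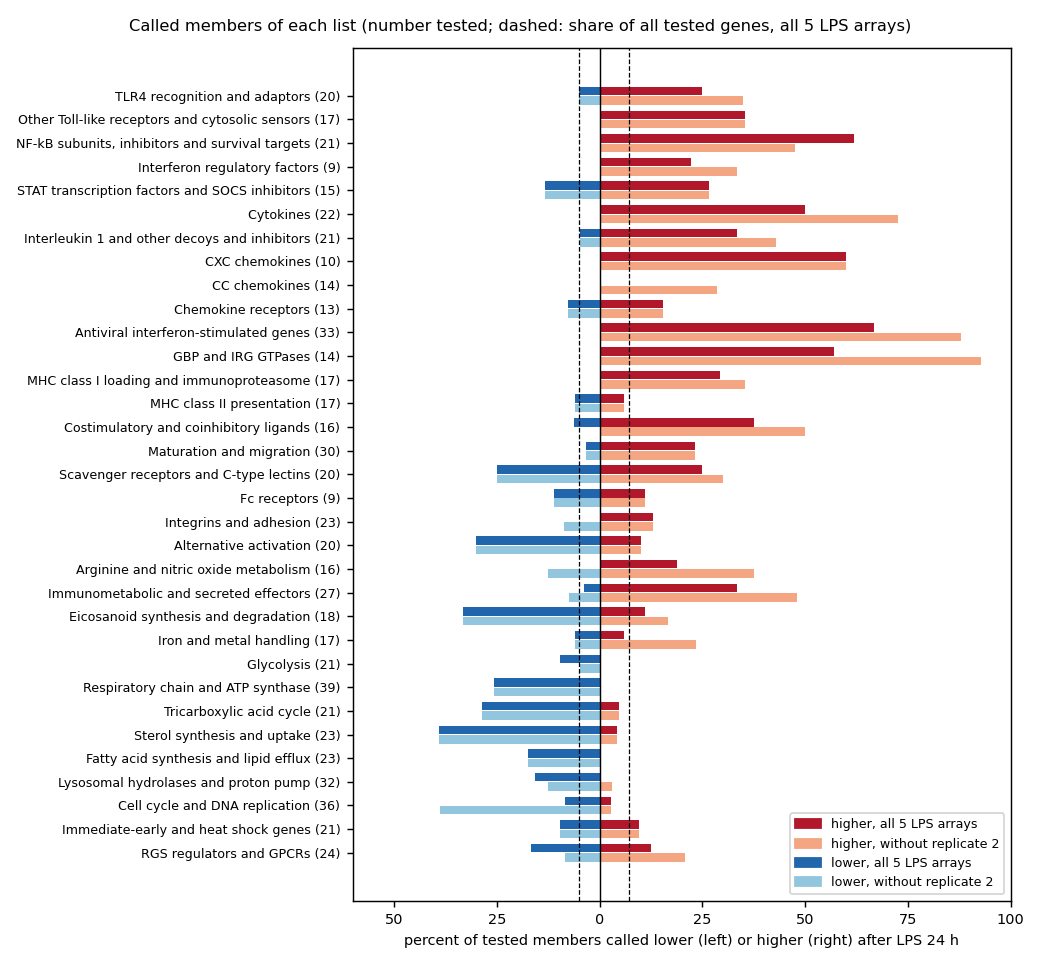
Percent of the tested members of each gene list called higher (right) or lower (left) after 24 h of LPS, in dark bars with all 5 LPS 24 h arrays and in pale bars without replicate 2. Dashed lines mark the shares of all 11250 genes, 7.24% higher and 5.06% lower. Among dark bars antiviral, NF-kB, CXC chemokine, GBP and IRG and cytokine genes reach farthest right and sterol synthesis genes farthest left, and the pale bar of the cell cycle list, 14 of 36 lower, is far longer than its dark one, 3 of 36.

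The receptor complex itself changed in its accessory chains. Of 20 genes of TLR4 recognition and its adaptors 5 were higher and 1 lower with all 5 arrays, and 7 and 1 without replicate 2. Ly96, which encodes MD-2, stood at 2.75, 2.69, 2.67, 2.74 and 2.69 in LPS 24 h replicates 1 to 5, against 1.62, 1.74, 1.54, 1.48 and 1.71 in the unstimulated arrays. All 5 LPS values, replicate 2 included, lay above the unstimulated ones (1.09 ± 0.16, adjusted p = 7.17e-05, the same difference without replicate 2). Cd14, the coreceptor, stood at 3.06, -1.73, 3.28, 1.40 and 2.04 after LPS and at -0.34, 0.07, 0.06, -1.24 and -1.11 in unstimulated cells. Replicate 2 lay below every unstimulated array and the other 4 above them (2.12 ± 0.62, adjusted p = 0.0247, and 2.96 ± 0.46, adjusted p = 9.7e-05, without replicate 2). Tlr4 was not called (-0.30 ± 0.25, adjusted p = 0.492). The ubiquitin ligase Traf6 rose by 0.83 ± 0.21 (adjusted p = 0.00938) and the kinase Irak4 fell by 0.48 on the log2 scale (adjusted p = 0.00927). Of 17 other pattern sensors 6 rose in both versions and 0 fell: Tlr2, Nod2, the helicases Ddx58, Ifih1 and Dhx58, and the Z-nucleic acid sensor Zbp1.

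The NF-kB list held rises in its subunits and in its inhibitors. Of 21 tested members 13 were higher and 0 lower with all 5 arrays, and 10 and 0 without replicate 2, when Nfkb1, Rel and Bcl2a1b lost the call. The median difference of the list was 1.00, and 0.88 without replicate 2. Relb, a subunit of the alternative NF-kB pathway, stood at 1.94, 2.71, 2.04, 1.63 and 1.36 in LPS 24 h replicates 1 to 5, against 0.95, 1.26, 1.33, 0.56 and 0.21 in the unstimulated arrays. Its highest value was that of replicate 2 (1.07 ± 0.29, adjusted p = 0.0158, and 0.88 ± 0.29, adjusted p = 0.0419, without that array). Birc3, which encodes the survival ubiquitin ligase cIAP2, stood at 2.52, 2.17, 2.50, 2.30 and 2.11 after LPS and at 1.22, 1.21, 1.35, 1.14 and 0.90 in unstimulated cells (1.15 ± 0.22, adjusted p = 0.00114, 1.19 without replicate 2). The groups did not overlap. Nfkbia, the inhibitor IkB alpha and an NF-kB target, stood at 3.04, 2.50, 3.24, 2.01 and 2.19 after LPS, against 1.35, 1.66, 1.73, 0.73 and 0.38 in unstimulated cells (1.42 ± 0.41, adjusted p = 0.0231, 1.44 without replicate 2). The other inhibitors Nfkbib (0.98 ± 0.20) and Nfkbie (1.00 ± 0.21) and the deubiquitinase Tnfaip3 (1.41 ± 0.46) rose as well, with adjusted p of 0.00194, 0.00263 and 0.0404. Among 21 inhibitors of cytokine signals and phosphatases 7 rose and 1 fell (9 and 1 without replicate 2), with Il1rn, the interleukin 1 receptor antagonist, 2.95-fold higher (adjusted p = 0.00114) and the kinase phosphatases Dusp1 and Dusp4 3.26-fold and 2.54-fold higher (adjusted p = 0.00467 and 0.00354). Dusp4 was at -0.10 and not called with slide as a fixed block and a term for replicates 1 to 3.

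Interferon-stimulated genes gave the longest count of rises among the lists. Of 33 antiviral members 22 were higher with all 5 arrays and 29 without replicate 2, and 0 were lower in either version. Their median difference was 1.99, and 2.41 without replicate 2. Isg15, a ubiquitin-like modifier, stood at 4.11, -1.18, 4.26, 2.77 and 3.04 in LPS 24 h replicates 1 to 5, against -1.15, -1.12, -1.42, -1.10 and -0.93 in the unstimulated arrays. The value of replicate 2 lay among the unstimulated ones and the other 4 lay far above them. The difference was 3.75 ± 0.81 (13.4-fold, adjusted p = 0.00351), and 4.69 ± 0.68 (25.8-fold, adjusted p = 4.25e-05) without replicate 2. Ifit1, which binds viral RNA lacking cap methylation, stood at 4.57, -1.50, 4.41, 2.74 and 2.67 after LPS and between -1.55 and -1.44 in unstimulated cells (4.08 ± 1.00, adjusted p = 0.0081, and 5.10 ± 0.90, adjusted p = 0.000401, without replicate 2). Bst2, which encodes the virus-retaining protein tetherin, stood at 3.42, 0.73, 3.62, 1.93 and 2.32 after LPS, against -0.14, -0.16, -0.21, 0.03 and -0.09 in unstimulated cells, so that here replicate 2 also exceeded the unstimulated arrays (2.52 ± 0.40, adjusted p = 0.000182). For these 3 genes replicates 1 and 3 lay above replicates 4 and 5.

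The transcription factors of the interferon response moved unequally. Irf7, the factor that amplifies type I interferon, stood at 3.96, -1.61, 4.10, 1.92 and 2.46 after LPS, against -1.54, -1.57, -1.46, -1.50 and -1.15 in unstimulated cells (3.61 ± 0.80, adjusted p = 0.00416, and 4.56 ± 0.67, adjusted p = 4.64e-05, without replicate 2). Stat2 stood at 4.05, 1.98, 4.47, 2.34 and 2.24 after LPS, against 0.76, 0.86, 0.86, 0.60 and 0.35 in unstimulated cells. All 5 LPS values were above the unstimulated ones (2.33 ± 0.59, adjusted p = 0.0106). Irf9, which forms a complex with STAT2, rose by 0.80 ± 0.24 (adjusted p = 0.0271). Irf8 was called without replicate 2 and not with all 5 arrays (0.87 ± 0.29, adjusted p = 0.046), and Irf4 in neither version (0.73 ± 0.27, adjusted p = 0.0712, and 0.60 ± 0.28, adjusted p = 0.155). Blocked on the replicate number Irf8 and Irf4 were called, with adjusted p of 0.0373 and 0.0237.

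Guanylate-binding proteins and immunity-related GTPases, which attack the vacuoles of intracellular microbes, were higher in 8 of 14 tested cases with all 5 arrays and in 13 of 14 without replicate 2, with 0 lower. Gbp5 stood at 6.27, 3.40, 6.12, 4.79 and 4.72 in LPS 24 h replicates 1 to 5, against 1.91, 1.74, 1.71, 2.08 and 1.65 in the unstimulated arrays (3.24 ± 0.68, adjusted p = 0.00263). All 5 LPS values exceeded the unstimulated ones. Gbp4 rose 4.95-fold and Gbp2 2.44-fold (adjusted p = 0.00381 and 0.0116). Iigp1 stood at 4.26, -0.58, 4.37, 0.84 and 1.56 after LPS, against -0.47, -0.32, -0.49, -0.03 and 0.24 in unstimulated cells, and was called without replicate 2 (2.97 ± 0.77, adjusted p = 0.00907, against 0.0571 with all 5 arrays and 0.0442 with the replicate block). Probes of these families can pick up close relatives, which was not tested.

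The upstream sequence of 6 of these rising genes is shown because the antiviral and NF-kB lists parted on the array of replicate 2 and both kinds of gene have known short control elements. Only genes with a match were shown, so the stretches do not tell how common matches are. Sequences are RefSeq promoters (GRCm38.p6), written on the gene's strand from 5′ to 3′ and ending before the start of transcription. Capitals mark matches to the core of the interferon-stimulated response element (GAAA, any 2 bases, GAAA) or to a form of the NF-kB element (GGGA, any 2 bases, TTCC), on either strand.
Isg15 (chr4:156200826-156200945, minus strand): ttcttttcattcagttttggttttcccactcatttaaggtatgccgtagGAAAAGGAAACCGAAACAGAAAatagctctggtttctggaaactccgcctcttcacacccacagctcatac
Ifit1 (chr19:34640739-34640858, plus strand): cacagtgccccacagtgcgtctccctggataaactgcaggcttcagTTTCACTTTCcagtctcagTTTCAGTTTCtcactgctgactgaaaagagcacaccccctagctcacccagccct
Cxcl10 (chr5:92349011-92349130, minus strand): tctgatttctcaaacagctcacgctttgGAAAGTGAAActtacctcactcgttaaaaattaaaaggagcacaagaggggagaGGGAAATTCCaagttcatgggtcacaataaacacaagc
Gbp5 (chr3:142496758-142496877, plus strand): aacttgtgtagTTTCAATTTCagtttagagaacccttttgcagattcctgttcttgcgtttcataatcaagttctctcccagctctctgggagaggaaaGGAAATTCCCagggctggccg
Il6 (chr5:30012994-30013113, plus strand): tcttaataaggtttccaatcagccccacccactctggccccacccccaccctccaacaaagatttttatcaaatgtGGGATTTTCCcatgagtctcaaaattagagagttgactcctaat
Nfkbia (chr12:55492648-55492767, minus strand): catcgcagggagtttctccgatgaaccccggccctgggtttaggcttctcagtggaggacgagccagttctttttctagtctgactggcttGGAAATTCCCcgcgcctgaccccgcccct

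In these stretches Isg15 held 3 overlapping matches to the interferon element, Ifit1 2 separate ones, Cxcl10 and Gbp5 1 match to each element, and Il6 and Nfkbia 1 match to the NF-kB element. Of the printed genes with an NF-kB match, Il6 and Cxcl10 lay far below the other LPS arrays on replicate 2, and Nfkbia lay among them. Gbp5 lay between the unstimulated arrays and the other LPS arrays there. Whether matches go with the parting on replicate 2 was not tested. Of 11250 tested genes 9070 had a RefSeq window, and over its 250 bases before the start 3.42% of these genes held the interferon element, 1.47% the NF-kB element, 7.36% the STAT element (TTC, any 3 bases, GAA) and 0.176% the sterol element (ATCAC, any base, CCAC). Over all 27025 RefSeq genes with a window the shares were 3.46, 1.36, 8.13 and 0.226%. The share with the interferon element was 5.41% of the 647 genes with a window that were called higher and 3.12% of the 448 called lower. It was in 35 of the 326 that were called higher at least 2-fold without replicate 2. The NF-kB element was in 3.4% of the genes called higher and 0.223% of those called lower, and the STAT element in 6.8 and 8.71%. By list, the interferon element was in 10 of 26 antiviral genes and 8 of 8 GBP and IRG genes with a window, and in 0 of 18 NF-kB genes. The NF-kB element was in 2 of these 18, in 4 of 26 antiviral genes, in 4 of 17 cytokines and in 4 of 8 CXC chemokines. The sterol element was in 0 of 16 sterol genes. Matches are given as a description of the sequence and were set against the calls without a test.

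Cytokine genes rose in 11 of 22 tested cases with all 5 arrays and in 16 without replicate 2, and 0 fell. Il6, the pleiotropic acute-phase cytokine, stood at 6.13, 2.45, 5.85, 6.54 and 6.54 in LPS 24 h replicates 1 to 5, against 1.71, 1.84, 1.77, 1.49 and 1.94 in the unstimulated arrays. Replicate 2 exceeded the highest unstimulated value but lay far below the other LPS arrays (3.75 ± 1.04, adjusted p = 0.0178, and 4.51 ± 1.03, adjusted p = 0.00375, without it). Tnf stood at 2.86, 0.05, 2.98, 2.39 and 2.19 after LPS, against 0.08, -0.43, -0.34, 0.83 and 0.49 in unstimulated cells. The value of replicate 2 fell inside the unstimulated range (1.97 ± 0.54, adjusted p = 0.0164, and 2.48 ± 0.50, adjusted p = 0.00128, without it). Lta, which encodes lymphotoxin alpha, stood at 2.43, 3.16, 1.96, 3.74 and 3.96 after LPS, against 0.75, -0.26, -0.36, 1.72 and 1.15 in unstimulated cells. Here replicate 2 lay with the others, and the groups did not overlap (2.45 ± 0.50, adjusted p = 0.00204, and 2.43 without replicate 2). Osm, a cytokine of the interleukin 6 family, rose 2.78-fold (adjusted p = 1.58e-05) and Ebi3, a subunit of interleukins 27 and 35, 2.51-fold (adjusted p = 0.000893). The partner subunit Il27 was at the unstimulated level (-0.06 ± 0.13, adjusted p = 0.851). Il12b and Il10 were not analysed here, the first for want of a named probe and the second because it did not pass the filter.

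Of 10 CXC chemokines 6 were higher in both versions and 0 lower. Of 14 CC chemokines 0 were called with all 5 arrays and 4 (Ccl2, Ccl7, Ccl8 and Ccl12, ligands of monocyte receptors) were higher without replicate 2. The median differences were 1.51 and 0.60, and 1.95 and 0.77 without replicate 2. Cxcl2, a neutrophil attractant, stood at 3.09, 0.18, 2.04, 5.51 and 5.33 in LPS 24 h replicates 1 to 5, against -0.07, -0.23, -0.08, 0.36 and 0.09 in the unstimulated arrays. Replicates 4 and 5 were the highest and replicate 2 lay in the unstimulated range (3.22 ± 0.81, adjusted p = 0.00948, and 3.98 ± 0.75, adjusted p = 0.000723, without it). Cxcl10, the interferon-induced ligand of CXCR3, stood at 4.20, -1.21, 4.45, 1.26 and 1.51 after LPS, against -2.23, -2.44, -2.64, -1.74 and -1.92 in unstimulated cells. It was highest in replicates 1 and 3 (4.24 ± 1.21, adjusted p = 0.0211, and 5.05 ± 1.22, adjusted p = 0.0057, without replicate 2). Cxcl5, another neutrophil attractant, was called higher after LPS (adjusted p = 0.00592). It was not well above background on any unstimulated array, so its ratio-scale folds of 5.01, and 8.24 without replicate 2, rest on background signal there. Ccl22 and Ccl17, ligands of CCR4, were not called (0.65 ± 0.37, adjusted p = 0.275, and 0.37 ± 0.34, adjusted p = 0.553).

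Among 13 chemokine receptors 2 rose and 1 fell, in both versions. Of all genes 7.24% rose and 5.06% fell with all 5 arrays, so these counts were near the overall shares. Ccr2, the receptor that brings monocytes out of the marrow, stood at 5.03, 4.74, 4.94, 3.85 and 4.43 in LPS 24 h replicates 1 to 5, against 6.35, 6.62, 6.59, 6.57 and 6.84 in the unstimulated arrays. Replicate 2 was among the low LPS values and the groups did not overlap (-2.0 ± 0.53, adjusted p = 0.0143, and -2.03 ± 0.58, adjusted p = 0.0172, without replicate 2). Cxcr5 was at least 2.81-fold higher in the Cy5 signal after LPS (adjusted p = 0.000182), as it was not well above background on any unstimulated array. Ccrl2, an atypical receptor that binds chemerin, rose 4.78-fold (adjusted p = 0.0226, 7.53-fold without replicate 2), with replicate 2 at 1.31, below the lowest unstimulated value of 1.58. Ccr7, the receptor that guides mature dendritic cells to lymph nodes, stood at 5.19, 4.84, 5.08, 4.97 and 4.84 after LPS, against 4.77, 4.78, 4.83, 4.66 and 4.84 in unstimulated cells (0.21 ± 0.51, adjusted p = 0.859).

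**Figure D2:**
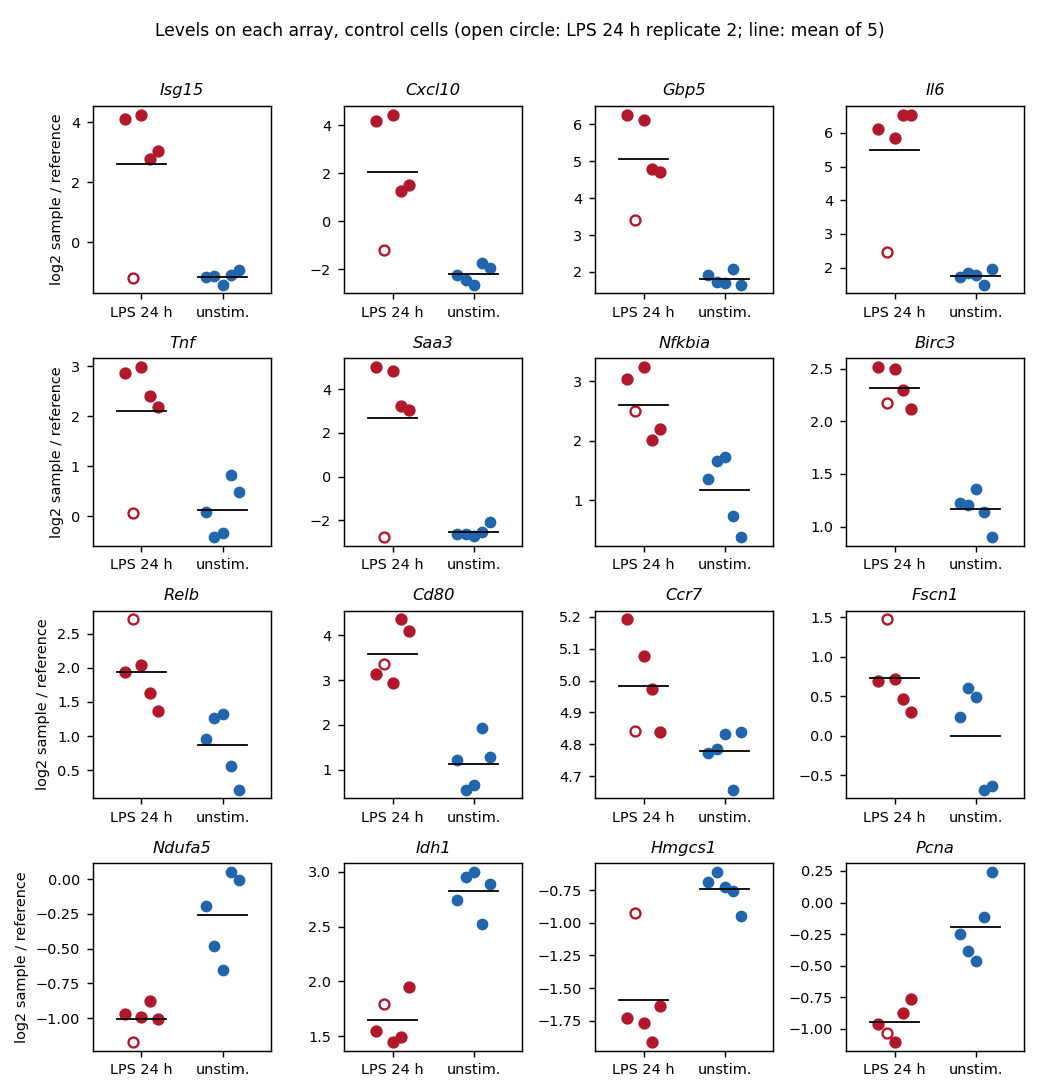
Level (log2 sample over reference) of 16 genes on each of the 5 LPS 24 h arrays (red, left; the open circle is replicate 2) and the 5 unstimulated arrays (blue, right), with the mean of 5 as a line. The axis of each panel has its own range. For Isg15, Tnf and Saa3 the open circle lies within or below the unstimulated points, and for Birc3, Relb, Cd80, Ndufa5, Idh1 and Pcna it lies with the other LPS arrays or farther out.

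Of 16 costimulatory and coinhibitory genes 6 were higher and 1 lower, and 8 and 0 without replicate 2. Cd80, a ligand of CD28, stood at 3.13, 3.36, 2.94, 4.35 and 4.09 in LPS 24 h replicates 1 to 5, against 1.22, 0.56, 0.67, 1.92 and 1.28 in the unstimulated arrays. All LPS values, replicate 2 included, lay above them (2.44 ± 0.46, adjusted p = 0.000945, 2.50 without replicate 2). Cd86, the other CD28 ligand, rose 2.89-fold (adjusted p = 0.03) and Cd200, a ligand that restrains myeloid cells, 3.49-fold (adjusted p = 0.00725). Cd83 stood at 6.19 to 6.41 after LPS, lowest in replicate 2, against 6.00 to 6.13 in unstimulated cells, and was not called (0.29 ± 0.35, adjusted p = 0.673). Its groups did not overlap, as was true of 642 genes with all LPS arrays above (5.71%) and 476 with all below (4.23%). Without replicate 2 these were 1219 (10.8%) and 851 (7.56%).

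Of 17 class II genes 1 rose and 1 fell in both versions, the chaperone modulator H2-Oa (0.96 ± 0.30, adjusted p = 0.0364) and the peptide exchange subunit H2-DMa (-0.60 ± 0.18, adjusted p = 0.0316, turning to 0.18 with slide as a fixed block). These counts were near the overall shares of 7.24% higher and 5.06% lower. H2-Ab1 stood at 3.95, 3.43, 3.91, 3.65 and 3.60 after LPS, against 3.60, 3.67, 3.68, 3.40 and 3.46 in unstimulated cells (0.14 ± 0.12, adjusted p = 0.518). The groups overlapped. Ciita, the master regulator of class II, was not called (0.01 ± 0.33, adjusted p = 0.991). Of 17 class I loading genes 5 rose and 0 fell (6 and 0 without replicate 2): the peptide transporter subunit Tap1, the immunoproteasome subunits Psmb8 and Psmb9, the proteasome activator Psme1 and the peptide editor Tapbpl. Psmb9 stood at 3.19, 2.55, 3.21, 3.14 and 3.15 after LPS, against 1.95, 1.87, 1.86, 2.06 and 2.27 in unstimulated cells (1.05 ± 0.28, adjusted p = 0.014). Of 30 maturation and migration genes 7 rose and 1 fell, in both versions, with Il15ra, which presents interleukin 15, up 2.76-fold (adjusted p = 0.00349) and the adhesion ligand Icam1 1.73-fold (adjusted p = 0.00725). The actin bundler Fscn1 was not called (0.73 ± 0.45, adjusted p = 0.32).

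Scavenger receptors and lectins changed in both directions, 5 of 20 up and 5 down (6 and 5 without replicate 2). Marco, a scavenger receptor for bacteria, stood at 5.49, 3.05, 5.36, 4.89 and 5.20 in LPS 24 h replicates 1 to 5, against 1.75, 1.44, 1.57, 2.25 and 1.99 in the unstimulated arrays (2.99 ± 0.43, adjusted p = 7.58e-05). Replicate 2 was the lowest LPS value and still above every unstimulated one. Clec4e, the receptor Mincle for mycobacterial glycolipid, stood at 3.97, -1.40, 4.09, 2.95 and 2.99 after LPS, against -0.87, -1.47, -1.50, -0.40 and 0.20 in unstimulated cells (3.33 ± 0.76, adjusted p = 0.00505, and 4.31 ± 0.58, adjusted p = 1.94e-05, without replicate 2). The mannose receptor Mrc1, an endocytic lectin, stood at 1.56, 4.16, 1.34, 0.50 and -0.20 after LPS, against 5.94, 6.06, 6.06, 4.32 and 3.75 in unstimulated cells. It had the largest fall among genes called in both versions (-3.75 ± 0.71, adjusted p = 0.00114, and -4.43 ± 0.66, adjusted p = 6.11e-05, without replicate 2), with replicate 2 inside the unstimulated range. With slide as a fixed block the Mrc1 difference was 0.23 (adjusted p = 0.86). The galactose lectin Clec10a (-1.63 ± 0.46, adjusted p = 0.0193), the fatty acid translocase Cd36 (-1.18 ± 0.29, adjusted p = 0.00832) and the lectin Clec4b1 (-1.27 ± 0.23, adjusted p = 0.000824) fell as well.

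Of 20 alternative activation genes 2 rose and 6 fell in both versions. Besides Mrc1 and Clec10a the falls were Fbp1, a gluconeogenic phosphatase, the transcription factor Klf4, the coagulation factor F13a1 and the lipoxygenase Alox15. Klf4 turned to 0.79 with slide as a fixed block, and Fbp1 to 0.33 with that block and a term for replicates 1 to 3, and neither was called there. Alox15 stood at 0.28, 2.57, -0.03, 0.51 and 0.45 in LPS 24 h replicates 1 to 5, against 2.17, 1.96, 1.95, 2.78 and 1.98 in the unstimulated arrays (-1.41 ± 0.34, adjusted p = 0.0071, and -1.87 ± 0.25, adjusted p = 1.73e-05, without replicate 2). Only replicate 2 was inside the unstimulated range. The classical markers Arg1, Chil3, Retnla and Mgl2 were not called, with differences of 0.17, -0.26, -0.37 and -0.00 and adjusted p of 0.35 to 0.998. In arginine metabolism Nos2, the inducible nitric oxide synthase, stood at 3.91, 0.06, 3.95, 0.92 and 1.74 after LPS, against 0.07 to 0.19 in unstimulated cells. It was called without replicate 2 (2.51 ± 0.75, adjusted p = 0.0223, against 0.077 with all 5 arrays and 0.0357 with the replicate block). Arg2, the mitochondrial arginase, stood at 2.22, 1.25, 1.73, 3.74 and 3.43 after LPS, against 0.85, 0.36, 0.44, 1.44 and 1.00 in unstimulated cells (1.66 ± 0.54, adjusted p = 0.0415). Nos2 was higher in replicates 1 and 3 and Arg2 in replicates 4 and 5, and Arg2 was at -0.34 and not called with slide as a fixed block.

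Secreted and acute-phase genes included the largest of the 15 rises named by size. Saa3, a serum amyloid A made by myeloid cells, stood at 5.02, -2.78, 4.85, 3.25 and 3.04 in LPS 24 h replicates 1 to 5, against -2.64, -2.61, -2.70, -2.53 and -2.08 in the unstimulated arrays. Replicate 2 was the lowest of all 10 arrays (5.19 ± 1.00, 36.5-fold, adjusted p = 0.00121, and 6.55 ± 0.72, 94.0-fold, adjusted p = 1.16e-06, without it). Its relative Saa1 rose 24.5-fold (adjusted p = 0.00163, 57.5-fold without replicate 2), and whether the probe of one also binds the other was not tested. The siderophore-binding protein Lcn2 rose 9.12-fold (adjusted p = 0.00011), complement factor Cfb 3.63-fold (adjusted p = 0.00149) and the mitochondrial superoxide dismutase Sod2 3.74-fold (adjusted p = 0.0269). The histamine-forming enzyme Hdc stood at 4.30, 1.02, 4.00, 4.63 and 4.74 after LPS, against -0.02 to 0.26 in unstimulated cells (3.64 ± 0.59, adjusted p = 0.000265, and 4.32 without replicate 2). Procr, the endothelial protein C receptor, rose 10.1-fold (adjusted p = 0.000401, 17.3-fold without replicate 2), the myeloid protein Plac8 14.6-fold (adjusted p = 0.0157, 25.4-fold without replicate 2) and the interleukin Il1b 12.8-fold (adjusted p = 0.00887, 24.8-fold without replicate 2). With slide as a fixed block Plac8 and Il1b were not called. The complement subunit C1qb fell by 1.91 on the log2 scale (adjusted p = 0.0202), and turned to 1.74, not called, with slide as a fixed block.

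Eicosanoid genes fell in 6 and rose in 2 of 18 cases (6 and 3 without replicate 2). The rises were the prostaglandin E synthase Ptges and the prostaglandin E2 receptor Ptger4. Ptges stood at 1.42, -2.88, 1.42, 0.42 and 0.59 after LPS, against -2.25, -2.44, -2.50, -2.15 and -1.87 in unstimulated cells (2.44 ± 0.59, adjusted p = 0.00778, and 3.20 without replicate 2). Ptgs2, the inducible cyclooxygenase, was not well above background on any unstimulated array. It was called only without replicate 2, at least 5.36-fold higher in the Cy5 signal (adjusted p = 0.00922, against 0.0778 with all 5 arrays). The falls included leukotriene A4 hydrolase, Lta4h, at -1.13, -0.73, -1.19, -1.35 and -1.51 after LPS, against 0.02, 0.01, 0.00, 0.02 and -0.23 in unstimulated cells. These groups did not overlap (-1.15 ± 0.25, adjusted p = 0.00404). Prostacyclin synthase, Ptgis, fell by 1.27 (adjusted p = 0.000735), and Ptgs1, Ptges2 and Alox5ap fell too.

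Of 39 respiratory chain and ATP synthase genes 10 fell and 0 rose, with all 5 arrays and also without replicate 2 (median difference -0.39 in both). Atp5o, a stalk subunit of ATP synthase, stood at -0.41, -0.45, -0.54, -0.20 and -0.26 in LPS 24 h replicates 1 to 5, against 0.52, 0.30, 0.29, 0.77 and 0.79 in the unstimulated arrays. Replicate 2 lay with the other LPS arrays (-0.91 ± 0.15, adjusted p = 0.000263, and -0.89 ± 0.16, adjusted p = 0.000407, without it). The complex I subunits Ndufa5 and Ndufs1 fell by 0.75 and 0.72 (adjusted p = 0.000363 and 0.000727), and the complex II subunit Sdhb by 0.49 (adjusted p = 0.0165). With median centring in place of loess Atp5o and Sdhb were not called. In the tricarboxylic acid cycle 6 of 21 genes fell and 1 rose in both versions. Idh2, the mitochondrial NADP-dependent isocitrate dehydrogenase, stood at -2.16, -1.67, -2.02, -2.17 and -2.13 after LPS, against -0.81, -1.17, -1.12, -0.60 and -0.65 in unstimulated cells (-1.16 ± 0.17, adjusted p = 7.92e-05). Its cytosolic counterpart Idh1 fell by 1.18 (adjusted p = 0.00834), and the rise was of pyruvate carboxylase, Pcx (0.47 ± 0.08, adjusted p = 0.000801, not called with median centring). Of 21 glycolysis genes 0 rose and 2 fell with all 5 arrays (1 without replicate 2), and Hk2, Ldha, Slc2a1 and Pfkfb3 were not called, with adjusted p of 0.491 to 0.928. The glycolysis counts were near the shares of all genes, 7.24% higher and 5.06% lower.

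Genes of sterol synthesis fell in 9 of 23 cases and rose in 1, in both versions. Hmgcs1, the synthase ahead of the rate-limiting step, stood at -1.73, -0.92, -1.77, -1.92 and -1.64 after LPS, against -0.68, -0.61, -0.72, -0.75 and -0.95 in unstimulated cells. Replicate 2 was the LPS array nearest the unstimulated ones (-0.85 ± 0.19, adjusted p = 0.00388, and -1.02 ± 0.18, adjusted p = 0.000318, without it). Squalene epoxidase, Sqle, fell by 1.02 (adjusted p = 0.00754). Hmgcs1 and Sqle were not called with median centring, nor was Hmgcs1 with slide as a fixed block. Of 23 genes of fatty acid synthesis and lipid efflux 4 fell and 0 rose. Pparg, a nuclear receptor for fatty acids, stood at -0.23, 0.65, -0.36, 0.57 and 0.53 in LPS 24 h replicates 1 to 5, against 1.93, 2.26, 2.07, 1.37 and 1.28 in the unstimulated arrays (-1.55 ± 0.30, adjusted p = 0.00121). The cholesterol exporter Abca1 was not called (0.50 ± 0.65, adjusted p = 0.695). Of 32 lysosomal genes 5 fell and 0 rose (4 and 1 without replicate 2), and the proton pump subunit Atp6v0d2 stood at 2.74, 2.32, 2.48, 2.32 and 2.64 after LPS, against 3.66, 3.74, 3.64, 3.51 and 3.60 in unstimulated cells (-1.13 ± 0.14, adjusted p = 2.32e-05).

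The cell cycle list was the one whose count changed most without replicate 2. Of 36 members 3 fell with all 5 arrays and 14 without replicate 2, and 1 rose in both versions. The 11 gained included the replication helicase subunits Mcm2, Mcm3 and Mcm7, the cyclins Ccna2, Ccnb1 and Ccnb2 and the Aurora kinases Aurka and Aurkb. Cdc20, an activator of the anaphase-promoting complex, stood at -3.55, -2.38, -3.46, -3.85 and -3.86 in LPS 24 h replicates 1 to 5, against -1.76, -2.52, -2.78, -1.15 and -1.57 in the unstimulated arrays (-1.46 ± 0.43, adjusted p = 0.0245). Replicate 2 lay within the unstimulated range. Pcna, the replication clamp, stood at -0.96, -1.03, -1.11, -0.87 and -0.76 after LPS, against -0.25, -0.39, -0.46, -0.12 and 0.24 in unstimulated cells, with no overlap (-0.75 ± 0.19, adjusted p = 0.00881). Ccnd2, a D-type cyclin, was the rise, at 3.18, 2.71, 3.08, 2.91 and 2.97 after LPS, against 0.79, -0.89, -0.65, 1.56 and 0.62 in unstimulated cells (2.69 ± 0.41, adjusted p = 0.000123). Myc fell by 1.24 (adjusted p = 0.00266).

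Feedback inhibitors of cytokine receptors went both ways: of 15 STAT and SOCS genes 4 rose and 2 fell in both versions. Socs3, an inhibitor of interleukin 6 signalling, stood at 1.29, -0.58, 1.44, -0.15 and 0.40 after LPS, against -1.40, -1.75, -1.74, -1.03 and -1.41 in unstimulated cells (1.95 ± 0.48, adjusted p = 0.00872). Cish stood at 4.73, 5.36, 4.69, 4.92 and 4.90 after LPS, against 4.23, 4.15, 4.31, 4.41 and 4.04 in unstimulated cells (0.69 ± 0.13, adjusted p = 0.000927), and its highest value was that of replicate 2, as for Socs2. Socs6 stood at 0.45, 0.69, 0.49, 0.25 and 0.38 after LPS, against 2.42, 2.71, 2.81, 1.56 and 1.43 in unstimulated cells (-1.73 ± 0.24, adjusted p = 4.71e-05). The groups of all 3 genes did not overlap.

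The array of replicate 2 followed the other LPS arrays in part of these groups. Among the 1763 genes called without it, its deviation from the unstimulated mean had a median of 0.385 times that of the other 4 LPS arrays. Its value lay beyond all 5 unstimulated arrays in the called direction for 926 of these genes, inside their range for 569 and beyond them in the opposite direction for 268. These genes were chosen without replicate 2, but both quantities share the unstimulated mean. The median share was 0.292 for the 1036 rises and 0.480 for the 727 falls, and 0.150 for the 423 rises of at least 2-fold.

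The share differed between lists. It was -0.007 over the 29 antiviral genes called without replicate 2, -0.027 over 16 cytokines, 0.12 over 13 GBP and IRG genes and 0.080 over 15 cell cycle genes. It was 0.878 over 10 NF-kB genes, 0.898 over 8 maturation genes, 0.948 over 10 respiratory chain genes and 0.639 over 7 genes of the tricarboxylic acid cycle. Of the 29 antiviral genes 7 lay beyond the unstimulated range in the called direction on replicate 2, 13 inside it and 9 on the opposite side, whereas all 10 NF-kB genes and all 8 maturation genes lay beyond it in the called direction. The neutrophil markers moved on this array too: 11 tested members had a median 1.39 above the unstimulated mean on replicate 2, against -0.20 to 0.54 on the other 4 LPS arrays and -0.48 to 0.38 on the unstimulated arrays. Their part in the result was not tested.

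**Figure D3:**
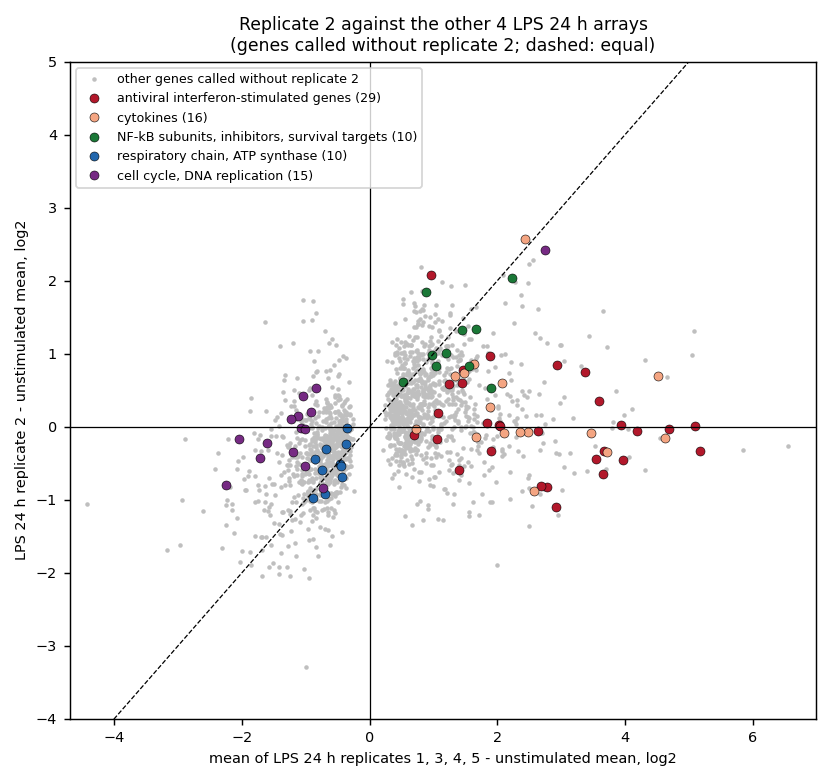
Each point is 1 of the 1763 genes called without LPS 24 h replicate 2; the horizontal axis gives the mean of the other 4 LPS arrays minus the unstimulated mean, and the vertical axis replicate 2 minus the unstimulated mean (both log2). Red antiviral and orange cytokine points mostly lie near the horizontal line at 0, with median shares of -0.007 and -0.027, and green NF-kB and blue respiratory chain points near the dashed line of equality, with shares of 0.878 and 0.948.

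Replicate sets differed in size of response within the group as well. Set against unstimulated replicates 1 to 3, LPS replicates 1 and 3 gave differences of 6.77 for Cxcl10, 6.02 for Ifit2, 3.83 for Nos2 and 2.70 for Cxcl2. Set against unstimulated replicates 4 and 5, LPS replicates 4 and 5 gave 3.22, 1.86, 1.19 and 5.19 for the same genes. The 1763 genes called without replicate 2 were chosen on these same arrays, which largely fixes agreement in direction. The direction was that of the call in both sets for 1759 of them. Among named genes called with all 5 arrays, Ass1, the arginine-recycling synthetase, was 1 of the 4 exceptions, with 1.66 in the first set and -0.25 in the second. The receptor Gpr84 (2.44 and 0.19) and the NF-kB regulator Pdlim2 (-1.0 and -0.10) were near 0 in the second.

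**Figure D4:**
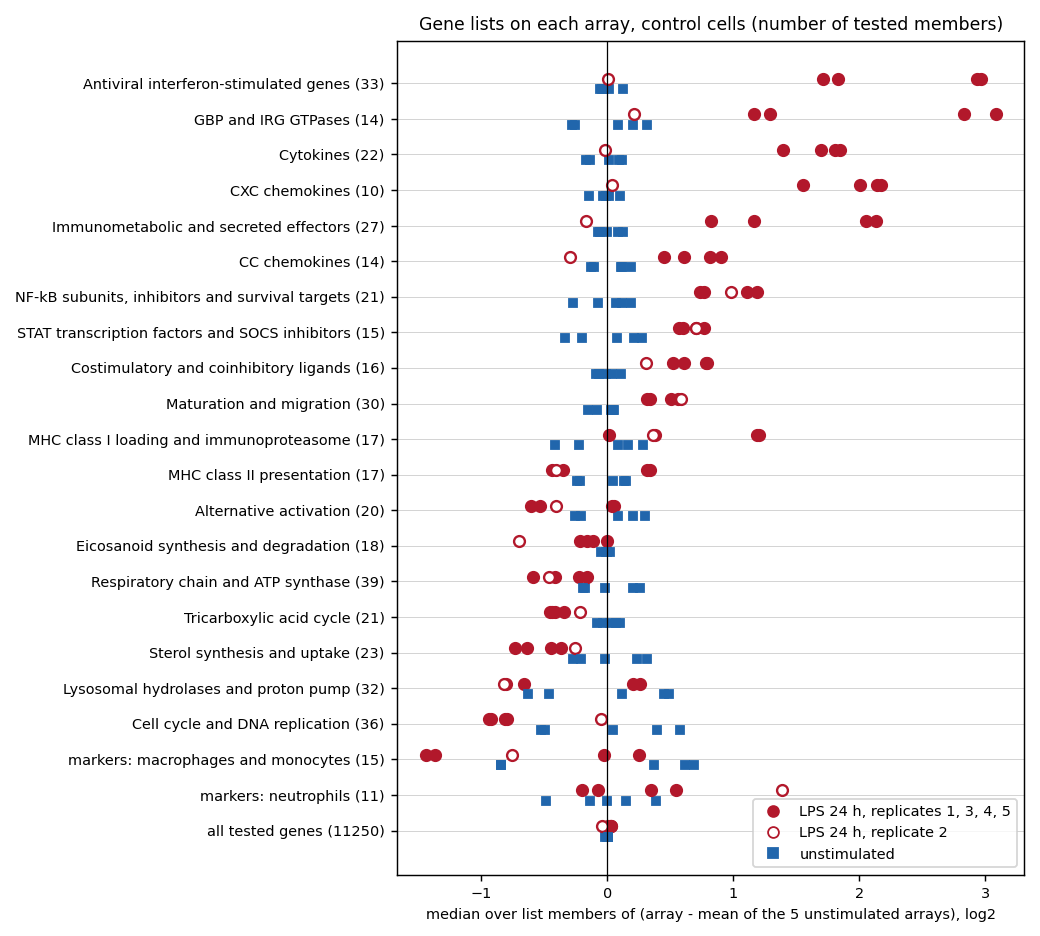
Median over the tested members of each list of the array's level minus the mean of the 5 unstimulated arrays (log2), for the LPS 24 h arrays (red circles, upper line; open for replicate 2) and the unstimulated arrays (blue squares, lower line). For antiviral genes the open circle is at 0.00 and the filled ones at 1.71 to 2.97, while for NF-kB genes it is at 0.98 and the filled ones at 0.74 to 1.19.

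Other falls among the genes that changed most belonged to transport, adhesion and signalling. Slc36a2, an amino acid transporter, stood at 0.71, 1.77, 0.69, -0.30 and 0.06 in LPS 24 h replicates 1 to 5, against 4.26, 4.53, 4.68, 2.24 and 1.59 in the unstimulated arrays (-2.88 ± 0.78, adjusted p = 0.0158), and turned to 1.58, not called, with slide as a fixed block. The diacylglycerol lipase Daglb stood at 0.05, 0.56, -0.13, -0.24 and -0.06 after LPS, against 2.36, 2.57, 2.50, 1.94 and 1.74 in unstimulated cells, with no overlap (-2.19 ± 0.30, adjusted p = 5.36e-05). The surface receptor Cd93 fell 5.11-fold (adjusted p = 0.0279, turning to 1.12 on the log2 scale with slide as a fixed block) and Lifr, the receptor for leukaemia inhibitory factor, 3.83-fold (adjusted p = 2.09e-05). Tfrc, the transferrin receptor, fell 3.17-fold (adjusted p = 0.00149), and Rgs2 and Rgs18, which shorten G-protein signals, 2.87-fold and 3.97-fold (adjusted p = 0.00415 and 0.000155). The formyl peptide receptors Fpr1 and Fpr2 rose 3.11-fold and 4.01-fold (adjusted p = 0.0034 and 0.0124).

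Counts of called markers of other cell types are set against the 12.3% of all genes called. With all 5 LPS arrays, 2 of 15 macrophage and monocyte markers rose (Cd14 and Csf3r) and 2 fell (C1qb and Trem2). Without replicate 2 there were 2 and 3, and Csf3r was no longer called. Of 7 markers of mast cells, basophils and eosinophils 2 rose and 1 fell, and without replicate 2 there were 2 and 0. Besides Hdc these were the transcription factor Gata2 (0.47 ± 0.10, adjusted p = 0.00395, and 0.44, adjusted p = 0.00682, without replicate 2) and the lectin Siglecf (-1.23 ± 0.40, adjusted p = 0.0422, and -1.05, adjusted p = 0.0897, without replicate 2). Siglecf turned to 0.59 with the scanner's log ratios. With all 5 arrays 1 of 11 neutrophil markers rose, Camp, at 3.09, 2.70, 2.55, 4.94 and 4.30 after LPS, against 0.92, 0.07, 0.47, 1.91 and 2.07 in unstimulated cells (2.43 ± 0.70, adjusted p = 0.022, turning to -0.89 with slide as a fixed block). The median of the 15 macrophage markers against the unstimulated mean ran from -1.44 to 0.25 on the LPS arrays and from -0.84 to 0.69 on the unstimulated arrays. Of 6 B cell markers and 6 T and NK cell markers 0 were called with all 5 arrays, and without replicate 2 the T and NK cell marker Lck rose. Ms4a1, Pax5, Cd3d, Ncr1, Elane, Prtn3, Cpa3, Cd163 and Timd4 were below the filter. The part of other cells in the results was not tested.

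Against control cells after 6 h of LPS, 619 genes differed at 24 h (5.5%), and 1074 (9.55%) without replicate 2 and without LPS 6 h replicate 3, an array that also lay near unstimulated cells. Mrc1 averaged 1.47 at 24 h, against 4.15 at 6 h (-2.67 ± 0.71, adjusted p = 0.0257), and Fbp1 3.97 against 6.48 (-2.51 ± 0.68, adjusted p = 0.0268). Idh2 (-0.81 ± 0.17, adjusted p = 0.0041), Hmgcs1 (-0.87 ± 0.19, adjusted p = 0.0059) and Atp5o (-0.66 ± 0.15, adjusted p = 0.0073) were lower at 24 h than at 6 h too, and Socs2 higher (0.75 ± 0.18, adjusted p = 0.0107). Cxcl10 and Tnf were called lower at 24 h only without those arrays (-4.07 and -1.55, adjusted p = 0.001 and 0.0018).

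Control and KO cells were set against each other through the difference of their 24 h responses, which was called for 100 genes (0.889%), and 97 (0.862%) without replicate 2. Zbp1 rose by 1.54 ± 0.35 in control cells, against 3.91 ± 0.35 in KO cells (control minus KO -2.37 ± 0.49, adjusted p = 0.0147). Gbp2 rose by 1.28 in control and 3.46 in KO cells, and Psmb8 by 0.86 and 2.00 (adjusted p of the differences 0.0193 and 0.0336). Lifr fell by 1.94 ± 0.24 in control cells, against a difference of 0.07 ± 0.24 in KO cells (adjusted p = 0.0044). Tfrc fell by 1.66 ± 0.33 in control cells, whereas in KO cells its level after LPS was higher by 0.31 ± 0.33 (adjusted p of the difference 0.0348). Without replicate 2 the difference for Psmb8 lost its call (adjusted p = 0.0563), those of the other 4 genes kept it, and Alox15 gained one.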

How the data were processed

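Total RNA of CD11c-selected BMDCs, labelled with Cy5, was hybridised against Cy3-labelled universal mouse reference RNA on 2-colour Agilent arrays, per the labels' protocols. The deposited scanner files hold the intensity of both dyes and a log10 ratio of red over green, written, per the file headers, by version 10.7.3.1 of Feature Extraction. The authors' deposited table holds normalised log2 ratios, and the submitters' processing notes name limma without a version. Here intensities were background-corrected (normexp, offset 50), loess-normalised within arrays and averaged per probe, with R 4.3.3 and limma 3.58.1. Probes were named through their accessions in RefSeq (22951 of 41174), and 1 probe was kept per gene. All 30 arrays entered 1 fit of 6 groups (24 residual degrees of freedom), without a replicate term, and p-values were adjusted by Benjamini-Hochberg over all 11250 genes. A probe not well above background on any array of a group gives a bound, computed on the Cy5 channel from the dimmest signal called above background, written as at least N-fold. Cxcl5 is instead given on the ratio scale. The 5 same-numbered pairs of LPS 24 h and unstimulated arrays had deviations correlated at 0.178 to 0.732. Only LPS replicate 5 correlated best with its own number. LPS replicate 1 stood at 0.479 with unstimulated 2, against 0.340 with 1, and LPS 4 at 0.748 with unstimulated 5, against 0.593 with 4. These values followed the sets of arrays, so they do not show that equal numbers pair the samples.

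Members and gene lists were chosen with earlier results of these data known. Named genes were the 15 largest rises and falls called with and without replicate 2, each list's preset key genes and up to 3 called members per direction by adjusted p, and the 6 largest called only without replicate 2. Alox5ap, Bcl2a1b, Ddx58, F13a1, Ifih1, Lck, Nfkb1, Nod2, Ptges2, Ptgs1, Rel, the CC chemokines and the cell cycle genes gained without replicate 2 were named after their values were seen. Some listed genes are not reported here. Scripts were tested on simulated data. Alternatives covered background correction, normalisation, filter, probe choice, slide and replicate blocks, array weights and each array left out.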

Additional observations from a re-analysis of the deposited data

Results flagged for a closer look

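Among the named genes reported here each group of 5 arrays was searched for an array standing far from the others, by Dixon's ratio of its gap to the whole range. Of 418 groups 49 gave one. The cutoff is passed by about 1 in 20 single groups of normal values, but that rate is no yardstick here. The genes share the same arrays. Some were also named because they were called only without replicate 2, or because the other 4 LPS arrays lay beyond the unstimulated ones. LPS 24 h replicate 2 was the array standing apart for 31 genes and unstimulated replicate 5 for 11. On LPS 24 h replicate 2 the first genes standing apart, with their log2 level there, were Saa3 (-2.77), Plac8 (-1.44), Il6 (2.45), Isg15 (-1.18), Il1b (2.10), Hdc (1.02), Procr (0.86), Clec4e (-1.40), Slco2b1 (1.85), Nts (-0.21), Ifi27l2a (1.18), Traf6 (1.62), Tnf (0.0541), Ccrl2 (1.31), Psmb9 (2.55) and Marchf1 (2.94). The others on that array were Cd200r1 (3.75), Marco (3.05), Cd47 (1.75), Alox15 (2.57), Cfb (3.04), Ptgs2 (-3.35), Ptges (-2.88), Hmgcs1 (-0.92), Asah1 (0.61), Cdk4 (-1.68), Cdc20 (-2.38), Gpr84 (2.43), Fpr1 (3.43), Fpr2 (3.79) and Col1a1 (-6.58). In the rest of the LPS 24 h group Fcmr stood apart on replicate 3 (0.52) and Mt1 on replicate 4 (-1.85). On unstimulated replicate 5 the levels standing apart were those of Saa3 (-2.08), Saa1 (-1.52), Irf7 (-1.15), Arhgap15 (3.95), Rgs18 (4.03), Ifi27l2a (2.78), Irak3 (1.02), Slc7a11 (1.3), Sod2 (-0.42), Lta4h (-0.23) and Klf6 (0.92). On unstimulated replicate 4 they were those of Cxcl5 (-3.16), Itgal (0.49) and Alox15 (2.78), on unstimulated replicate 3 that of Ccrl2 (1.89) and on unstimulated replicate 1 that of Slamf1 (0.55). The cause was not tested.

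For 7 named genes the 24 h response differed between control and KO cells by the interaction term in limma (Benjamini-Hochberg). The response of control cells minus that of KO cells, on the log2 scale, was -2.01 for Lifr, -2.37 for Zbp1, -1.21 for Nfkbie, -0.99 for Pdlim2, -2.18 for Gbp2, -1.15 for Psmb8 and -1.97 for Tfrc. Without LPS 24 h replicate 2 the differences for Nfkbie and Psmb8 lost the call (adjusted p = 0.0756 and 0.0563).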

How the results depend on the processing

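Of the counts of called genes (1384 with all 5 LPS arrays), those with slide as a random block (1234), the authors' value table (1380), backgrounds as scanned (1351), no filter on dim probes (1327), all probes averaged (1459) and the 10 arrays alone (979, and 1681 without replicate 2) were within 1.5 times. The scanner's log ratios gave 1410 (682 higher, 728 lower) and Cy5 alone 1360 (641 higher, 719 lower), so the split between rises and falls moved by over 10 percentage points. Leaving out each LPS replicate gave 954 to 1763 genes, and each unstimulated replicate 979 to 1194. Median centring gave 633, array weights 4239, leaving out the slide of replicate 2 2239, and slide as a fixed block 4716. Settings chosen after seeing the data gave 2858 (a term for replicates 1 to 3 against 4 and 5) and 2226 (that term with the slide block). The 24 h against 6 h count was 619, and 1074 without the arrays that lay near unstimulated cells.

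Treating arrays of equal number as blocks raised the calls to 2756, and to 3463 once replicate 2 was left out. Equal numbers were not shown to pair the samples, so these are not counts from known pairs. The term for replicates 1 to 3 against 4 and 5 alone gave 2858. Whether the added calls rest on pairing or on the sets of arrays was not tested. The replicate block kept all 147 calls among the 213 named genes and gained 13, among them Irf4, Irf8, Iigp1 and Nos2. It changed no other call among the named genes. Slide as a fixed block shared 871 of the 1384 calls (62.9%) and kept 104 of the 147, losing among others Plac8, Il1b, Lta, Cxcl2, Cish, Socs2, Clec10a, Cd86, Hmgcs1, Fpr1 and Fpr2. The 10 arrays alone shared 833 of the 1384 calls (60.2%) and kept 120 of the 147. Their losses included Il1b, Clec4e, Cd14, Irak4, Cxcl5, Alox15, Sod2, Ptges, Cd36, Klf4 and Fpr2, and 6 named genes gained a call, among them Irf4 and Irf8. Median centring kept 108, losing among others Atp5o, Sdhb, Pcx, Hmgcs1, Sqle, Lta4h, Pcna, Relb, Traf6, Cish and Tap1. Without LPS replicate 2, 141 of the 147 stayed, and 117 to 131 without another single LPS replicate and 124 to 133 without a single unstimulated replicate.

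Direction turned, with no call, for these named genes. Slide as a fixed block gave log2 differences of Mrc1 0.23, Slc36a2 1.58, Cd93 1.12, Fcrls 0.36, Chchd10 0.44, H2-DMa 0.18, Cd63 0.40, Ass1 -0.21, Arg2 -0.34, C1qb 1.74, Lipa 0.64, Klf4 0.79, Gpr84 -0.69, Lpar1 1.03 and Camp -0.89. With the replicate-set term added they were Fbp1 0.33, Ramp1 1.49, Dusp4 -0.10, H2-DMa 0.27, Ass1 -0.080, C1qb 0.56, Gpr84 -0.97 and Lpar1 0.15. The scanner's log ratios gave Cd200r1 0.038 and Siglecf 0.59. The cause was not tested. Probes near background limit what dim genes can show, and 5 arrays a group limit precision.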
